A study of Mus musculus with 10 samples.

Results

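Levels of 7 genes of sensory ganglion neurons, Avil, Calca, Scn10a, Scn11a, Trpv1, P2rx3 and Mrgprd, were followed in spinal cord RNA of C57BL/6 mice. They were chosen by name as a gauge of ganglion tissue left on the cord, and all 7 were found, among 26301 genes counted. The 10 libraries were 2 male and 2 female at 4 weeks of age and 3 male and 3 female at 8 weeks, all from mice of the same inbred strain with no treatment or altered gene named in the labels. Replicates are numbered in the labels, with no word on whether a number stands for its own mouse, and the spread behind the p-values may therefore be technical. Levels are CPM, counts scaled by the library total, and differences are log2 fold changes, each with its standard error (SE).

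Cell bodies of the neurons that sense touch, heat, itch and injury lie in the dorsal root ganglia, which sit on the dorsal roots beside the cord. Their axons enter the dorsal horn, but most of their RNA stays in the ganglion. Advillin (Avil) is an actin-binding protein made by nearly all of these neurons. Scn10a and Scn11a encode Nav1.8 and Nav1.9, voltage-gated sodium channels of pain-sensing neurons. Trpv1 is the channel opened by heat and capsaicin, P2rx3 an ATP-gated channel, and Mrgprd a receptor of nociceptors that end in the skin. Calca encodes the peptide CGRP and the hormone calcitonin, and it is also made by motor neurons within the cord.

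The RefSeq promoter table (GRCm38.p6) held 6 of the 7 genes, and not P2rx3. The 150 bases before the start site are shown for the 4 genes whose male libraries lay above every female library, and for Calca, the abundant gene that did not show that order. Capitals mark TGTGGT, the core bound by RUNX factors, and TGACG, part of a cyclic AMP response element, each on either strand.
Avil, chr10:127000559-127000708, plus strand: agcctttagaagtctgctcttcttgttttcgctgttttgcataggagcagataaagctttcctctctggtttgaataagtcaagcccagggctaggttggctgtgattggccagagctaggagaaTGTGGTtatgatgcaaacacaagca
Scn10a, chr9:119719033-119719182, minus strand: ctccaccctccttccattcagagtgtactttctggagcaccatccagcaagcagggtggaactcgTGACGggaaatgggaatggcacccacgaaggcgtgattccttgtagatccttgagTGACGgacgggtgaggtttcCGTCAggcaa
Scn11a, chr9:119825457-119825606, minus strand: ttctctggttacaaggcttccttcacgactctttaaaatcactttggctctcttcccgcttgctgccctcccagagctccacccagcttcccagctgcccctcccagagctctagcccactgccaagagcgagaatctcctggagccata
Mrgprd, chr7:145314685-145314834, plus strand: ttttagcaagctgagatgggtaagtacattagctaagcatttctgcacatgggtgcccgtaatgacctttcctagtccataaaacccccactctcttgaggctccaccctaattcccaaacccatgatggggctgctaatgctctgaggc
Calca, chr7:114636358-114636507, minus strand: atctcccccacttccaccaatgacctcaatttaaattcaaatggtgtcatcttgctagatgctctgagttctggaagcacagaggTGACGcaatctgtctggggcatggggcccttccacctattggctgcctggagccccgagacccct

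In the 250 bases before the start, TGTGGT lay in Avil, 25 bases before the start, and in Trpv1, and 14% of the 32851 promoters of the table held it. TGACG lay in Scn10a, in 3 copies, and in Calca, against 17.8% of promoters. None of the 6 held TAATTA, a homeodomain core found in 4.84% of promoters. Scn11a and Mrgprd held none of these 3 motifs. None of these 3 motifs was shared by the 4 genes, and no other pattern was searched for.

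Library totals lay between 8453559 and 11594610 counts, so that 1 count stood for 0.0862 to 0.118 CPM. The sex-linked genes Xist and Ddx3y did not overlap between the sexes and matched the labels in all 10 libraries. Defining genes of the cord were abundant in all libraries, with the 10 neuron, oligodendrocyte and astrocyte genes of that list summing to 41066 to 63187 CPM. Marker genes of other organs stood out in several libraries. The 6 adrenal cortex genes summed to 125 and 91.2 CPM in the male 4-week libraries and to at most 11.1 CPM in the other 8. The 6 lung genes summed to 856 CPM in male 8-week library 2, to 98.7 CPM in library 3 of that group, and to at most 1.3 CPM in females.

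Avil, Scn10a, Scn11a and Mrgprd were higher in each of the 5 male libraries than in any of the 5 female libraries, at both ages. For Mrgprd the lowest male and the highest female library held 1 count each and differed only through their library totals. Of all 20987 genes with a count, 0.724% showed this order. Summed over the sexes, the male level was 4.8 times the female level for Avil, 13 times for Scn10a, 21.6 times for Scn11a and 24.2 times for Mrgprd. Calca, P2rx3 and Trpv1 overlapped between the sexes. In bulk RNA, fewer cells of a type and less RNA per cell cannot be told apart.

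**Figure D1:**
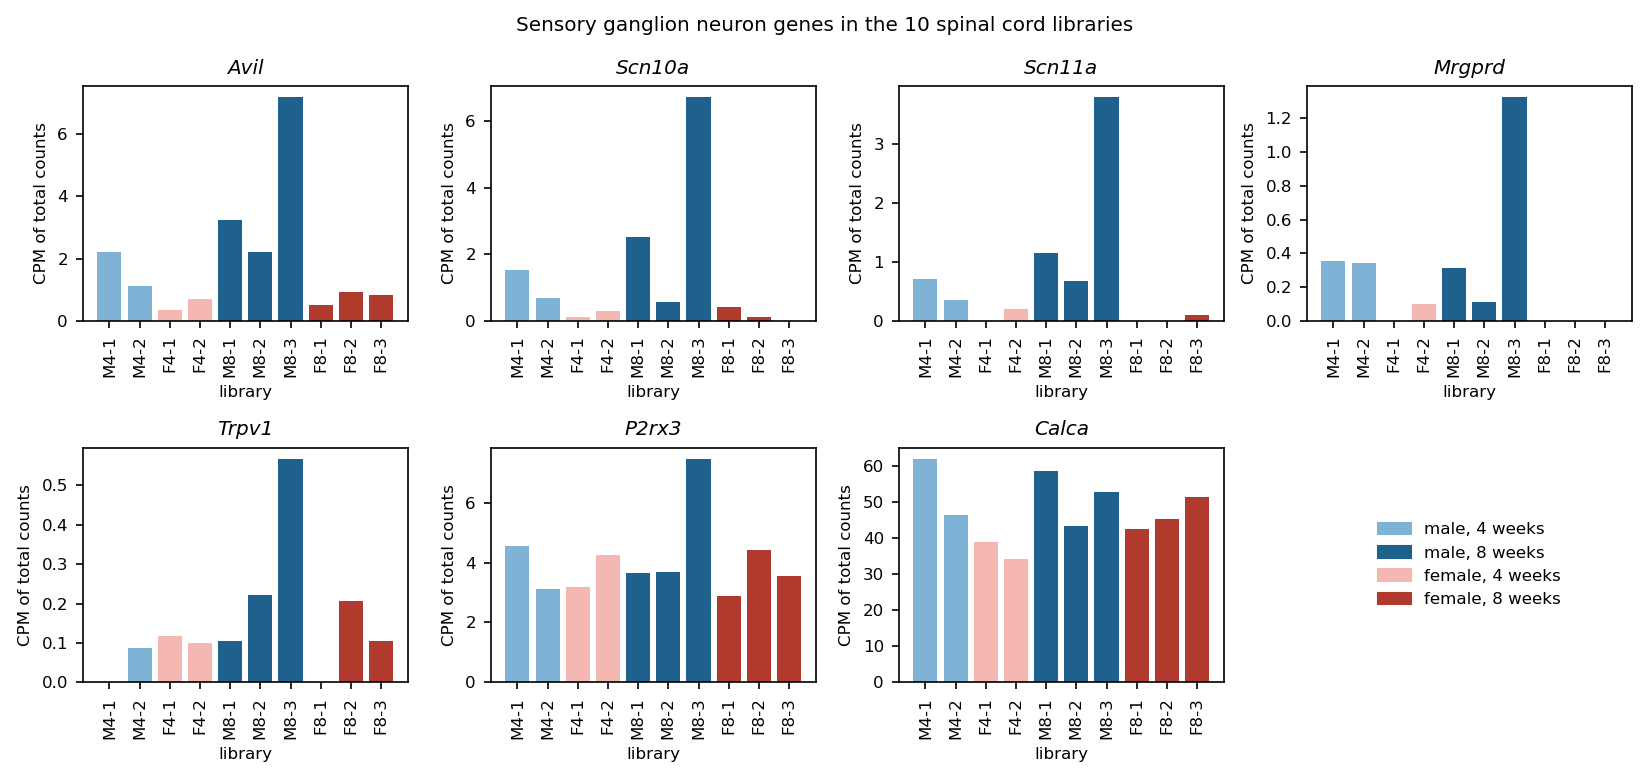
Level of each of the 7 genes in the 10 libraries, in CPM of total counts, each bar 1 library (M male, F female, then age in weeks and library number). The male bars of Avil, Scn10a, Scn11a and Mrgprd stand above every female bar, and male 8-week library 3 is the highest for every gene but Calca.

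Avil (Entrez Gene 11567) lay at 2.23 and 1.12 CPM in male 4-week libraries 1 and 2, and at 3.24, 2.23 and 7.19 CPM in male 8-week libraries 1 to 3. In females it lay at 0.355 and 0.691 CPM at 4 weeks, and at 0.515, 0.927 and 0.835 CPM at 8 weeks. The male mean was 3.2 ± 2.35 CPM (SD, n = 5) and the female mean 0.665 ± 0.233 CPM (SD, n = 5), and the smallest gap was between male 4-week library 2 and female 8-week library 2.

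Scn10a (Entrez Gene 20264) lay at 1.52 and 0.69 CPM in the male 4-week libraries, and at 2.51, 0.557 and 6.72 CPM in the male 8-week libraries. The female values were 0.118 and 0.296 CPM at 4 weeks, and 0.412, 0.103 and 0 CPM at 8 weeks. In counts this was 121 in males against 9 in females, a ratio of 13 with an exact 95% interval of 6.62 to 29.1 that covers counting error only.

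Scn11a (Entrez Gene 24046) showed the same order at lower levels. Its male values were 0.703 and 0.345 CPM at 4 weeks, and 1.15, 0.668 and 3.79 CPM at 8 weeks. Among females only female 4-week library 2, at 0.197 CPM, and female 8-week library 3, at 0.104 CPM, held any count. The 67 male and 3 female counts gave a ratio of 21.6 (exact 95% interval 7.08 to 107). A non-coding gene overlapping Scn11a by 689 bases in RefSeq, Gm33701, was not in the count files.

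Mrgprd (Entrez Gene 211578) was near the limit of detection. Its 5 male libraries held 3, 4, 3, 1 and 14 counts, or 0.352, 0.345, 0.314, 0.111 and 1.33 CPM, and the females held 1 count in all, in female 4-week library 2. The 25 male counts against 1 gave a ratio of 24.2 with an exact 95% interval of 3.96 to 992. Female 8-week libraries held 0 of 28994254 counts, which allows a level of up to 0.103 CPM in that group, the level of 3 counts. With 3 counts put in for that 0, the male 8-week level was 5.98 times the female level. The exact 95% interval of 18 male counts against 0 began lower, at 4.38, and covers counting error only. Male 8-week library 3 held 14 of these 18 counts.

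Within each age the count ratios, male over female, kept this direction with wider intervals. Avil stood at 2.96 (exact 95% interval 1.42 to 6.74) at 4 weeks and at 5.75 (3.64 to 9.5) at 8 weeks. Scn10a stood at 4.85 (1.64 to 19.4) at 4 weeks and at 19.9 (8.26 to 62.7) at 8 weeks. At 4 weeks the intervals of Scn11a, at 4.62 (0.984 to 43.3), and Mrgprd, at 6.46 (0.83 to 291), spanned 1. Scn11a stood at 56.8 (9.79 to 2282) at 8 weeks. With male 8-week library 3 left out, the ratio over both ages was 3.19 (2.1 to 4.96) for Avil, 6.84 (3.33 to 15.8) for Scn10a, 11.1 (3.41 to 57) for Scn11a and 13.5 (1.97 to 583) for Mrgprd. In RefSeq Avil lies 89 bases from Ctdsp2, a gene at 73.5 to 84.4 CPM, and the part of its reads in the count of Avil was not tested.

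These sex differences did not pass the test as designed, and passed it under some other settings. Among alternatives that tested the gene, the lack of a call stood in 14 of 19 for Avil, 14 of 18 for Scn10a and 12 of 16 for Scn11a. edgeR's quasi-likelihood test on 15540 filtered genes called 14 genes between the sexes, or 0.0901%, and 0 of the 5 tested members, 4 of which had an unadjusted p under 0.05. Avil had a log2 fold change of 2.19 (SE 0.40, edgeR adjusted p = 0.0756), Scn10a 3.54 (SE 0.76, adjusted p = 0.169) and Scn11a 4.13 (SE 0.84, adjusted p = 0.131). Limma-voom called 0 members as well, with 4 at an unadjusted p under 0.05. DESeq2 called 35 of the 15540 genes, among them 3 members: Avil (DESeq2 adjusted p = 0.000875), Scn10a (0.00194) and Scn11a (0.00962). Without the filter on low counts, edgeR called 60 of 20987 genes, 0.286%, among them the same 3, with Avil at adjusted p = 0.00263, Scn10a at 0.00626 and Scn11a at 0.0073, while Mrgprd stood at 3.91 (SE 0.98, edgeR adjusted p = 0.106).

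The filter asks for about 1.04 CPM in at least 2 libraries. Avil reached it in 5 male and 0 female libraries, Scn10a in 3 and 0, and Scn11a in 2 and 0, so these genes entered the test through the males alone, and the count of members tested supports nothing by itself. Mrgprd and Trpv1 did not enter it.

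The unfiltered calls depended on single libraries. Without male 8-week library 3, the highest, edgeR still called Avil (log2 fold change 1.72, SE 0.33, adjusted p = 0.00765) and Scn10a (2.72, SE 0.58, adjusted p = 0.0252), and Scn11a stood at adjusted p = 0.0505. Without female 8-week library 1 it called none of the 7, with Avil at 0.0649, Scn10a at 0.0799 and Scn11a at 0.144. Without female 8-week library 2 only Avil kept its call, and without female 8-week library 3 Scn10a lost it (0.0504). Without male 8-week library 2, which held most of the lung transcripts, 4 members were called, Mrgprd included (adjusted p = 0.0309). No share of all genes called in these fits is at hand to set beside these member counts. In the unfiltered fits the log2 fold change of Avil ranged from 1.72 to 2.41 over the 10 libraries left out in turn, that of Scn10a from 2.72 to 4 and that of Scn11a from 3.27 to 5.33.

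**Figure D2:**
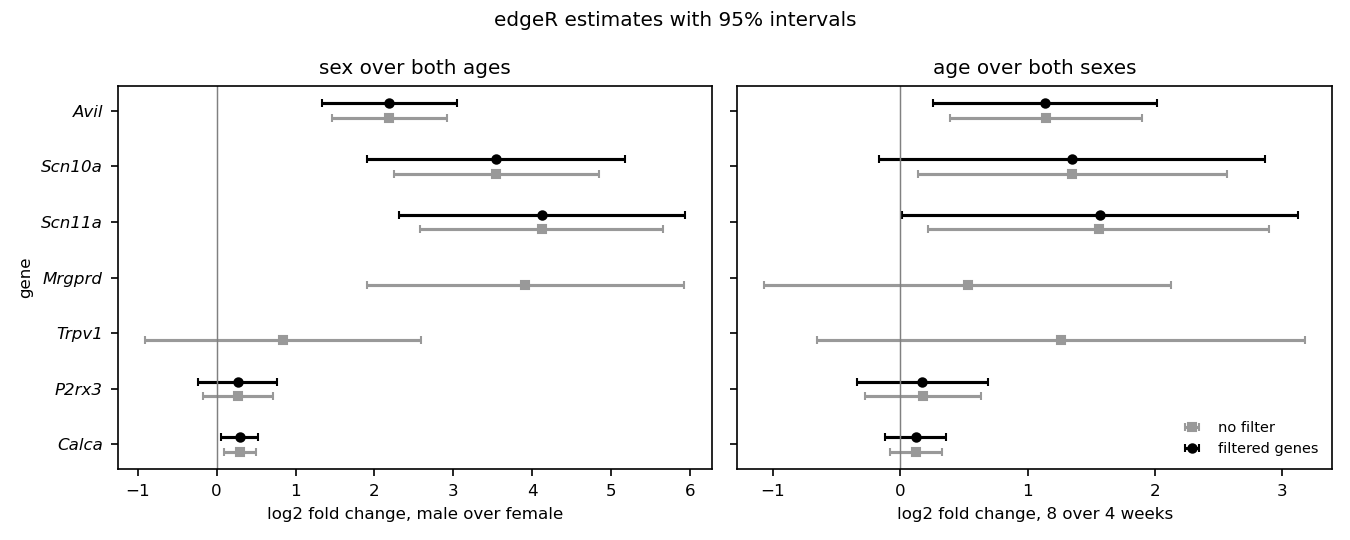
Log2 fold change of each gene with its 95% interval from edgeR, for male over female (left) and 8 over 4 weeks (right), with the filter on low counts (black circles) and without it (grey squares). For sex the intervals of Avil, Scn10a, Scn11a, Mrgprd and Calca lie above 0, with Calca at 0.29, that of P2rx3 spans 0, and no interval is adjusted for the number of genes.

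The male and female ranges of the other 3 members overlapped. Calca (Entrez Gene 12310) lay at 62.1 and 46.4 CPM in the male 4-week libraries and at 58.7, 43.3 and 52.8 CPM in the male 8-week libraries. In females it lay at 38.9 and 34.3 CPM at 4 weeks and at 42.6, 45.3 and 51.4 CPM at 8 weeks. The 8-week sexes overlapped and the 4-week sexes did not. No share of all genes with such an order among the 4-week libraries alone is at hand. With so few libraries of each sex, the 4-week order of Calca supports nothing by itself. The log2 fold change of Calca, male over female, was 0.29 (95% interval 0.06 to 0.53, edgeR adjusted p = 0.618).

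P2rx3 (Entrez Gene 228139) had a male mean of 4.5 ± 1.75 CPM (SD, n = 5) and a female mean of 3.66 ± 0.663 CPM (SD, n = 5). Only male 8-week library 3, at 7.48 CPM, stood apart, and the other 9 libraries lay between 2.89 and 4.57 CPM. Its log2 fold change was 0.27 (95% interval −0.24 to 0.77, edgeR adjusted p = 0.752), and −0.0074 without male 8-week libraries 2 and 3. In RefSeq P2rx3 overlaps Prg3, at 0 to 1.28 CPM, by 11 bases and lies 11 bases from Ssrp1, a gene at 80.1 to 93.6 CPM. The part of reads from these neighbours in the count of P2rx3 was not tested.

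Trpv1 (Entrez Gene 193034) held 15 counts in all 10 libraries. It had no count in male 4-week library 1 and female 8-week library 1. Its highest level was 0.568 CPM, in male 8-week library 3, and the other 7 libraries lay between 0.0862 and 0.223 CPM. The 10 male and 5 female counts gave a ratio of 1.93 (exact 95% interval 0.602 to 7.21), which spans 1.

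Male 8-week library 3 had the highest level of 6 of the 7 genes, and 9.28% of all tested genes were highest there. The tested genes do not include Mrgprd and Trpv1, which are among the 6. Against the next highest library it held 2.22 times as much Avil, 2.68 times as much Scn10a, 3.29 times as much Scn11a, 3.77 times as much Mrgprd, 2.55 times as much Trpv1 and 1.64 times as much P2rx3. The exception was Calca, highest in male 4-week library 1 at 62.1 CPM. The 6 genes without Calca summed to 27.1 CPM in male 8-week library 3, to 11 CPM in male 8-week library 1, 9.37 CPM in male 4-week library 1 and 7.46 CPM in male 8-week library 2. Male 4-week library 2, at 5.69 CPM, lay barely above the highest female library, at 5.66 CPM, and the lowest library, female 4-week library 1, held 3.79 CPM. P2rx3 made up most of the female sums.

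Per kilobase of exon in GENCODE M21, the order of mean levels over the 10 libraries was Calca at 28.3, P2rx3 at 1.46, Avil at 0.569, Scn10a at 0.162, Scn11a at 0.117, Mrgprd at 0.081 and Trpv1 at 0.041 CPM per kilobase. Calca thus stood far above the rest. Scn10a and Scn11a were close, and each varied between libraries by more than the gap between their means.

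Between the ages none of the 7 genes was called. edgeR called 1028 of 15540 genes, 6.62%, for age over both sexes, and 0 of the 5 tested members, 2 of which had an unadjusted p under 0.05. DESeq2 and limma-voom also called 0. Each of the 7 genes overlapped between the ages, whereas 3.62% of tested genes lay higher in every 8-week library and 4.49% in every 4-week library. Avil lay at 1.1 ± 0.815 CPM (SD, n = 4) at 4 weeks and at 2.49 ± 2.52 CPM (SD, n = 6) at 8 weeks, a log2 fold change of 1.14 (95% interval 0.26 to 2.02, edgeR adjusted p = 0.12). Scn10a stood at 1.35 (95% interval −0.16 to 2.86, adjusted p = 0.299) and Scn11a at 1.57 (0.02 to 3.13, adjusted p = 0.233). Leaving out both libraries of 4-week males turned these 2 estimates negative, at −0.31 and −1.35, with females as the only source of the age estimate. Leaving out male 8-week library 3 alone took Avil to 0.66 (edgeR adjusted p = 0.302) and Scn10a to 0.37 (adjusted p = 0.806). Calca stood at 0.12 (−0.12 to 0.36, edgeR adjusted p = 0.586) and P2rx3 at 0.17 (−0.34 to 0.69, adjusted p = 0.737).

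Within a sex the age difference gave 501 calls in males, 3.22% of genes, and 226 in females, 1.45%, with 0 of the 5 tested members in either. At an unadjusted p under 0.05 there were 2 members in males and 1 in females. The difference between the sexes in their age effect was called for 2 genes, 0.0129%, and for 0 members, with an unadjusted p under 0.05 for 0 of the 5. DESeq2 and limma-voom called 0 members in each of these 3 comparisons. Avil had the interaction estimate 0.9 (95% interval −1.17 to 2.97), male minus female. For Scn10a it was 1.94 (−2.6 to 6.48), and both intervals were wide.

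Other genes of sensory ganglia were taken from 4 lists that hold 31 genes, of which 16 were tested. Between the sexes 0 of the 16 were called, 11 had a positive estimate for males, and the median was 0.15. Over all 15540 tested genes 7847 estimates were positive. Of the 30 with a count, 12 were highest in male 8-week library 3 and 18 in another library. Of all tested genes, 9.28% were highest in male 8-week library 3. That share is over genes that passed the filter, whereas the 30 include genes that did not. The summed level of the receptor list was highest in female 8-week library 3, at 20.5 CPM. Among channels, Scn9a, which encodes Nav1.7, lay between 5.91 and 12.8 CPM, highest in male 8-week library 3, with a log2 fold change of 0.16 (SE 0.18). Asic3, an acid-gated channel, peaked in the same library at 1.8 CPM, and so did Trpm8, the cold-sensing channel, at 1.14 CPM. Prdm12, a transcription factor of nociceptors, had no count in 6 libraries and its highest level, 1.04 CPM, in male 8-week library 3. The channel Piezo2 and the transcription factors Pou4f1 and Isl1 were also highest there. The channels Trpa1 and Kcnk18 were highest in other libraries. So were the transcription factors Pou4f2, Pou4f3, Drgx, Runx1, Runx3 and Tlx3, and Runx3 was lowest in male 8-week library 3.

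Several genes of these lists are also made by cord neurons and were abundant in all libraries. Prph, an intermediate filament of sensory and motor neurons, lay between 59.2 and 94.3 CPM and Sncg, gamma-synuclein, between 80.9 and 117 CPM, both highest in male 8-week library 3. Their male over female estimates were 0.18 (SE 0.08, edgeR adjusted p = 0.670) and 0.21 (SE 0.08, adjusted p = 0.618). Among receptors of itch neurons, Il31ra, a cytokine receptor, had a count in every library, with a median of 0.656 and a highest level of 1.14 CPM, and Cysltr2, a leukotriene receptor, held 25 counts in all. Mrgprb4 had no count in any library, and Mrgpra3, Mrgprb5 and Mrgprx1 stayed at or below 0.118 CPM. For age, 1 of the 16 was called, against 6.62% of all tested genes. Lpar3, a lysophosphatidic acid receptor, was lower at 8 weeks by a log2 fold change of −0.91 (SE 0.25, edgeR adjusted p = 0.0484).

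The genes through which CGRP acts were measured beside Calca. Calcrl, the receptor, lay between 16.3 and 22.5 CPM, and Ramp1, the subunit that makes it a CGRP receptor, between 86.9 and 121 CPM. Of the 5 genes of the list 0 were called for sex or for age, with medians of 0.04 for each. Calcb, which encodes a second form of CGRP, lay between 7.5 and 15.1 CPM, highest in male 4-week library 1 as Calca was. Its sex estimate was 0.39 (SE 0.14, edgeR adjusted p = 0.606).

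Marker genes of other cell types also differed between libraries. The 12 genes of Schwann cells and ganglion glia, which wrap peripheral axons, summed to 439 to 1451 CPM in male and to 483 to 828.9 CPM in female libraries. For sex 0 of 12 were called, 11 had a positive estimate, and the median was 0.69. The 3 libraries with the highest sums of the 6 members, male 8-week libraries 3 and 1 and male 4-week library 1, also had the 3 highest Schwann sums, at 1378, 1281 and 1451 CPM. Male 8-week library 2, next in the member sum, had the lowest Schwann sum.

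Motor neuron genes, 10 with Calca, Calcb and Prph among them, summed to 336 to 411 CPM in males and 334 to 381 CPM in females, with 0 called for sex and a median of 0.15. Skeletal muscle genes summed to 162 to 2011 CPM in males and 128 to 746 CPM in females, with 12 of 12 estimates positive, 0 called and a median of 0.60. Of the 8 sympathetic neuron and adrenal medulla genes, which could mark other ganglia, Hand2 was at 0 in 7 libraries and Pnmt in 8. Their sum was 9.37 to 17.5 CPM in males and 8.04 to 10.4 CPM in females. Of 5 tested adrenal cortex genes 3 were called higher in males, and of 6 lung genes 0, against 0.0901% of all tested genes called for sex. The part of these tissues in the male and female levels of the 7 genes was not tested. The sex estimate of Avil was 2.46 (edgeR adjusted p = 0.121) without both libraries of 4-week males, where the adrenal cortex sums were high. It was 1.85 (adjusted p = 0.114) without male 8-week libraries 2 and 3, where the lung sums were high.

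**Figure D3:**
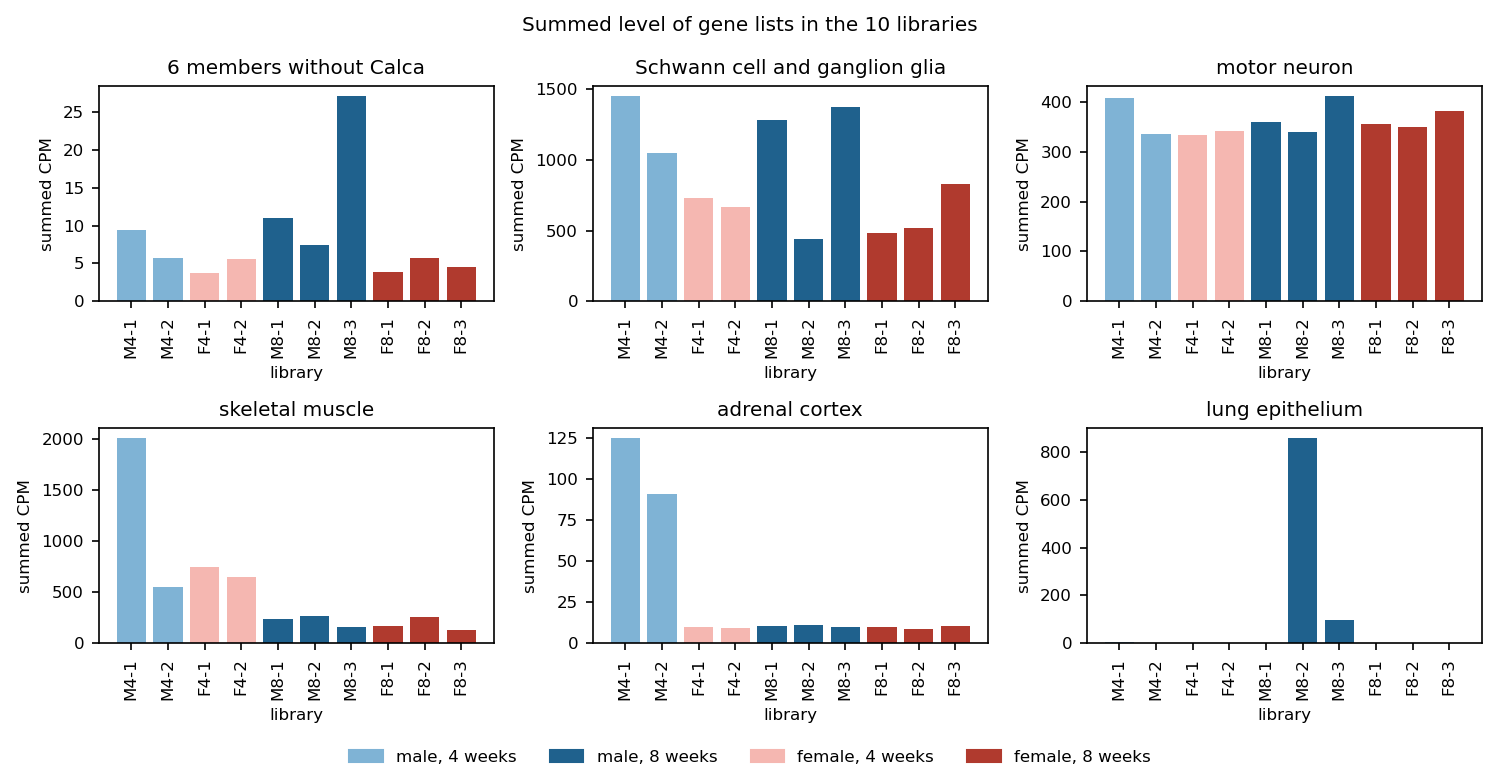
Summed CPM of 6 gene lists in the 10 libraries, each bar 1 library. The sum of the 6 members without Calca peaks in male 8-week library 3, whereas muscle and adrenal sums peak in male 4-week library 1 and the lung sum in male 8-week library 2.

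The genes whose levels were most like those of the members were ranked by Pearson's r between their log2 CPM and the log2 summed CPM of the 6 members without Calca, over the 10 libraries, as a description with no test. The median r of all tested genes was −0.01 and the 95th percentile 0.485. Of the 10 highest outside the members, 9 were Ppp1r1c (r = 0.907), Pirt (0.901), Fxyd2 (0.891), Ccn3 (0.886), Uri1 (0.882), Adcy4 (0.864), Gldn (0.848), Ngfr (0.843) and Acpp (0.837). The libraries share the high point of male 8-week library 3. Without it r was 0.772 for Ppp1r1c, 0.842 for Fxyd2, 0.799 for Pirt and 0.59 for Ngfr.

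Pirt, a membrane regulator of TRP channels in sensory neurons, reached 4.92 CPM in male 8-week library 3 and ranged from 0.515 to 2.51 CPM elsewhere. Fxyd2, a subunit of the sodium pump, lay at 1.98 to 10.9 CPM in males and at 0.626 to 1.78 CPM in females, without overlap. That order was held by 0.724% of all genes with a count. The log2 fold change of Fxyd2 for sex was 2.21, with an edgeR adjusted p of 0.108. Fxyd2 was picked for likeness to a sum of 5.69 to 27.1 CPM in males and 3.79 to 5.66 CPM in females. Its order between the sexes is tied to that choice and supports nothing by itself. Acpp, a phosphatase used as a marker of skin nociceptors, lay between 1.12 and 4.92 CPM. Gldn and Ngfr are genes of Schwann cells, Ngfr also of sensory neurons, and Uri1, a chaperone-like protein, varied only from 50.8 to 56.9 CPM.

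**Figure D4:**
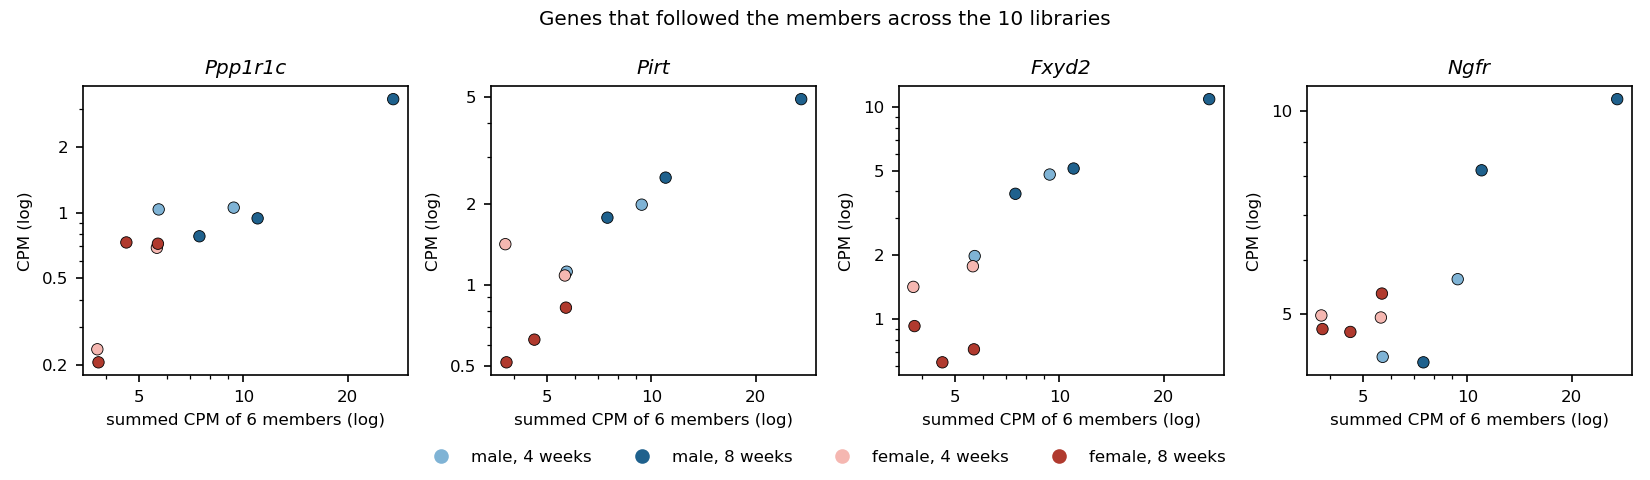
CPM of Ppp1r1c, Pirt, Fxyd2 and Ngfr against the summed CPM of the 6 members without Calca, both on log axes, each point 1 library coloured by sex and age. Male 8-week library 3 is the point at the upper right of each panel, and r over the 10 libraries was 0.907, 0.901, 0.891 and 0.843.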

How the data were processed

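The authors deposited raw read counts per Entrez Gene identifier, 1 file per library, with no scaling. TopHat2 2.1.0, featureCounts and the build mm9 are named, per the submitters' processing notes. The sources used here do not give strand or counting options. Symbols came from RefSeq GRCm38.p6, which matched 24191 of 26301 identifiers, and exon lengths from GENCODE M21.

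The test was edgeR 4.0.16 (R 4.3.3) with TMM scaling, filterByExpr (minimum count 10, minimum total 15), a two-sided quasi-likelihood F test and Benjamini-Hochberg adjustment over all genes at 0.05. Age and sex were terms of 1 model with 7 residual degrees of freedom. A model of the 4 groups, with 6, gave the age difference in each sex and the interaction. SE is the size of the log2 fold change over the square root of F. The fit was tested on simulated data. Alternatives were DESeq2 1.42.0, limma-voom 3.58.1, other scalings and filters, a replicate block and libraries left out. The unfiltered fits that also leave out a library were chosen after seeing the data. Replicate libraries differed beyond sampling noise (chi-square per degree of freedom 1.92 to 11.2), and each counted as a sample.

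All 7 members are named. Each other list is given by counts and median, with its called or most abundant genes, and any gene of the sensory, Schwann, motor and CGRP receptor lists may be named for its level, as may the 10 genes of highest likeness, 1 of which is not reported here. The members and lists were chosen with earlier results of these data known.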

Additional observations from a re-analysis of the deposited data

Results flagged for a closer look

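Male 8-week library 3 lay far from the other libraries of its set, by the size of its gap to the next library relative to the whole range, for 4 genes. Among the 6 libraries at 8 weeks it stood apart for Mrgprd at 1.33 CPM, P2rx3 at 7.48 CPM, Scn10a at 6.72 CPM and Scn11a at 3.79 CPM. Among the 5 male libraries it stood apart for Mrgprd and Scn11a. Female 4-week library 2 stood apart among the 5 female libraries for Mrgprd, at 0.0987 CPM, which is 1 count against 0 in the others. Of 28 sets tested, 7 held such a library. Chance flags about 1 in 20 sets of values drawn from 1 normal distribution. That rate need not hold for counts near 0 or for sets that mix sexes or ages, and the sets share libraries. The female Mrgprd set is flagged by any single count.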

How the results depend on the processing

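For sex, 14 genes and 0 members were called, against 60 genes and 3 members with no filter, 35 and 3 with DESeq2, 38 and 3 with a replicate block, and 9 genes without both male 4-week libraries. With each library left out and the filter kept, 10 to 28 genes were called. Over the filtered and unfiltered fits with a library left out, 0 to 4 members were called. The 4 came from an unfiltered fit, without male 8-week library 2, and so are not among those 10 to 28 genes. The number of genes called in these unfiltered fits is not at hand. Deviations from the group mean correlated at −0.213 to 0.236 in 13 same-numbered pairs of libraries, and at −0.254 to 0.254 in 24 other pairs. The 2 libraries of each 4-week group deviate by equal and opposite amounts. These ranges therefore cannot decide whether replicate numbers pair the libraries. For age, 1028 genes were called, against 393 without both male 4-week libraries and 474 without male 8-week libraries 2 and 3. Within males 501 became 15 without male 8-week libraries 2 and 3, and 188 to 1199 with a library left out. Within females 226 became 340 with no filter, 393 without both male 4-week libraries, 118 without male 8-week libraries 2 and 3, and 62 to 394 with a library left out. The interaction gave 2 genes, 1 with limma-voom, 0 without male 8-week libraries 2 and 3, and 1 to 2 with a library left out. The causes were not tested.

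Among uncalled estimates from the model with age and sex as terms, these changed sign. Without both male 4-week libraries, age gave −0.31 for Scn10a, −1.35 for Scn11a, −0.0566 for Trpv1, −0.0625 for P2rx3 and −2.36 for Mrgprd. The replicate block gave −0.0401 for P2rx3 and −0.87 for Mrgprd (age). Without male 8-week libraries 2 and 3, age gave −0.0555 for P2rx3 and −0.52 for Mrgprd, and sex −0.50 for Trpv1 and −0.0074 for P2rx3. Limma-voom gave −0.21 for Mrgprd (age). With a library left out, the age estimate ranged from −0.056 to 0.32 for P2rx3 and −0.90 to 0.94 for Mrgprd, and the sex estimate of P2rx3 from −0.00459 to 0.38. Age estimates within a sex, all uncalled, changed sign or fell to 0 in 16 of 243 alternatives. The sex estimates of Avil, Scn10a, Scn11a and Mrgprd stayed positive under every alternative that gave a value. Few counts limit Trpv1 (15) and Mrgprd (26).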
